A study of Mus musculus with 6 samples.

Results

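Cdkn1a and 9 other genes of the p53 response (Trp53, Mdm2, Ccng1, Btg2, Gadd45a, Bax, Bbc3, Trp53inp1 and Sesn2) were examined in livers of Retnla-Tg mice and of mice without the transgene. Cdkn1a had been chosen by its measured difference between these same livers, and the other genes were added for their place in the p53 pathway. Of the 10 genes, 8 had probe sets that the platform annotation ties to a single gene symbol, 16 probe sets among the 34945 with a single symbol. Trp53 and Bax were not analysed here. Where a gene had several probe sets, the probe set selected on the highest mean over the 6 arrays stood for it, and all 8 genes were among the 12705 genes whose probe set lay above the filter on dim signals, a mean log2 signal of 5.63.

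The Tg group was 3 Retnla transgenic mice (Tg 5, Tg 6 and Tg 7), set against 3 non-transgenic mice (non-Tg 1, non-Tg 2 and non-Tg 3). All 6 were males on a C57BL6/J background, aged 3 months, which had been moved to a high-fat diet with 21% fat and 0.15% cholesterol when 8 weeks old and stayed on it for 4 weeks. Each liver gave 1 Affymetrix mouse genome array. The promoter that drives the transgene is not given in the sources used here, and all mice, including those without the transgene, were on the diet. A standard-diet group was not analysed here.

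The protein p53, the product of Trp53, is a transcription factor that accumulates after DNA damage and other stress. It binds pairs of half-sites in DNA and activates genes that halt the cell cycle (Cdkn1a, Btg2, Gadd45a, Ccng1), that promote cell death (Bax, Bbc3), that curb growth and oxidative stress (Sesn2, Trp53inp1), and its own inhibitor Mdm2, a ubiquitin ligase. Several of these genes also answer to signals other than p53. In liver, p21, the product of Cdkn1a, restrains hepatocytes from dividing.

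The sequences before the starts of Cdkn1a, Btg2 and Gadd45a are shown because these 3 genes had Tg and non-Tg values that did not overlap. They are the 250 bases before each start in RefSeq, build GRCm38.p6, written 5′ to 3′, with every match to the p53 half-site consensus in capitals. The half-site consensus reads the same on both strands, so each match counts once for both.
Cdkn1a, upstream start (chr17:29090729-29090978, plus strand): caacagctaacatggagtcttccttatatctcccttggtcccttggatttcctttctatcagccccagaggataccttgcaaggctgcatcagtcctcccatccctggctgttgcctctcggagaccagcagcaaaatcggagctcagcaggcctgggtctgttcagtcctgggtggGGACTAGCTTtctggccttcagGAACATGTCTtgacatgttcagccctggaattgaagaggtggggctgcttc
Cdkn1a, downstream start (chr17:29093519-29093768, plus strand): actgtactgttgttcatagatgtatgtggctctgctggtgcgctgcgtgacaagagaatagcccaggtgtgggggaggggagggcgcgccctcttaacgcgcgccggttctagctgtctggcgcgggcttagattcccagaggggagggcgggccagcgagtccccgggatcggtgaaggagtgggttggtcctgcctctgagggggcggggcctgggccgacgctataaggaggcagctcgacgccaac
Btg2 (chr1:134079156-134079405, minus strand): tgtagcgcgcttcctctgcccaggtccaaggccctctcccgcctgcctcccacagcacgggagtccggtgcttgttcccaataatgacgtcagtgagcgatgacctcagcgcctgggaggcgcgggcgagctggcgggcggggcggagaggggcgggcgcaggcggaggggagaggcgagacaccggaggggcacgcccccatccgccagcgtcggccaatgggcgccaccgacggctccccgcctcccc
Gadd45a (chr6:67037408-67037657, minus strand): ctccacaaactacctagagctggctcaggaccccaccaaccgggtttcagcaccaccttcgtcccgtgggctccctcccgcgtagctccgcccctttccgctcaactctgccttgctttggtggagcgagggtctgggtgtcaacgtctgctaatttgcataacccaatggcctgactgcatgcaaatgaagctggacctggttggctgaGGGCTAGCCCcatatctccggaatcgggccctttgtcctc

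The upstream start of Cdkn1a held 2 half-site matches, which began 73 and 51 bases before that start, while the window of its downstream start held none. Gadd45a held 1 match, 40 bases before its start, and the Btg2 window held none. Over the promoter table, which has windows for 9 of the 10 genes, 6 genes (Cdkn1a, Trp53, Mdm2, Ccng1, Gadd45a and Bax) had a match in at least 1 window, against 7.13% of all 32851 windows of this length. The genes were picked as p53 targets, so this is a description of the list and not a result about these livers. The GC box, GGGCGG on either strand, was in a window of 7 of the 9 genes and in 32.7% of all windows. For both motifs the counts are of genes, some with several windows (12 windows for the 9 genes), while the shares are of single windows. A match is a run of letters and not a measured binding site, and the probe sets were not assigned to either Cdkn1a start.

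The arrays were alike in overall signal, with median log2 signals from 6.52 to 6.74 in Tg and from 6.49 to 6.63 in non-Tg livers, and hepatocyte markers such as albumin and apolipoprotein A1 were near the top of the scale in all 6. The signal of bioC, a spiked-in bacterial control transcript, split the arrays into 2 sets: Tg 5, Tg 6 and non-Tg 1 had bioC log2 signals from 9.83 to 9.94, and Tg 7, non-Tg 2 and non-Tg 3 from 11.21 to 11.45. The beta-actin 3′ minus 5′ log2 difference, a sign of RNA or cRNA length, was 0.73 to 0.81 in the lower bioC set and 1.09 to 1.19 in the higher one. The same difference for Gapdh did not follow the sets, at -0.34 to -0.19 in the lower and -0.29 to -0.25 in the higher one. Each set holds mice of both groups but in unequal numbers, so the Tg minus non-Tg difference within each set is given for the genes. With 3 mice against 3 an exact permutation test over mice cannot give a p below 0.1, so the tests below are those of limma over all 12705 genes. Of these, 2 genes passed at an adjusted p of 0.05, Retnla and Nnt, both higher in Tg livers, which is 0.0157% of the genes tested. None of the 7 measured p53 genes other than Cdkn1a was among them, and Cdkn1a, chosen by its difference, is given no test. At an unadjusted p under 0.05 the limma fit counted 769 genes.

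Cdkn1a stood highest above its non-Tg level of the 8 genes. Its log2 signal was 7.38 in Tg 5, 10.44 in Tg 6 and 8.57 in Tg 7, against 5.54 in non-Tg 1, 4.06 in non-Tg 2 and 5.70 in non-Tg 3. Every Tg liver lay above every non-Tg liver, but the Tg livers were far apart from each other, with Tg 6 well above the other two. Tg livers averaged 8.80 ± 1.54 and non-Tg livers 5.10 ± 0.90 (SD over 3 mice each), which makes a log2 difference of 3.70 ± 0.73 (SE). Of the 12705 genes tested, Retnla alone differed by more on this scale. No test is given for this difference, because it chose the gene. The non-Tg mean of 5.10 lay under the filter at 5.63, so Cdkn1a was tested because of its Tg signals, and near background a log2 difference depends on the constant used: once 64 is added to each signal and the log taken again it was 2.39.

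Tg mice differed widely among themselves in Cdkn1a. Its Tg SD of 1.54 was exceeded by 1.68% of the tested genes and its non-Tg SD of 0.90 by 6.25%, while the median gene had SDs of 0.25 in Tg and 0.22 in non-Tg livers. These shares are over all tested genes and were not matched for signal, and the non-Tg mean of Cdkn1a lay under the filter. Leaving out Tg 6 gave a difference of 2.88, leaving out Tg 5 gave 4.40, and leaving out non-Tg 2 gave 3.18. Within the lower and the higher bioC set Cdkn1a differed by 3.37 and 3.69. Tg 6 also had the highest signal of all 6 livers for 8 of 8 Kupffer cell markers. Their summed signal was 16511 to 42259 in Tg and 20734 to 23849 in non-Tg livers. The lowest of these sums was in Tg 7, which had more Cdkn1a than Tg 5 and every non-Tg liver. The sum over the 8 measured of 10 T and NK cell markers, 5 of them above the filter, ran from 902 to 2249.9 in Tg and from 583 to 1082 in non-Tg livers. Tg 6 was again highest, and Tg 7, at 902, lay below non-Tg 1, at 1082. The part of these cells in the Cdkn1a signal was not tested, and in whole liver a change in the number of cells of a type and in RNA per cell cannot be told apart.

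The other Cdkn1a probe set did not separate the groups. It read 2.27, 7.998 and 6.89 in Tg 5, Tg 6 and Tg 7, against 3.96, 4.33 and 2.78 in non-Tg 1, non-Tg 2 and non-Tg 3, a log2 difference of 2.03 ± 1.35 (SE). Tg 6 and Tg 7 were above every non-Tg liver on both probe sets, whereas Tg 5 was the lowest of the 6 arrays here and the lowest Tg liver on the brighter probe set. The mean of this probe set, 4.71, lay below the filter. Across the 6 arrays the 2 probe sets had a Pearson r of 0.70, a description over arrays that share the group difference.

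**Figure D1:**
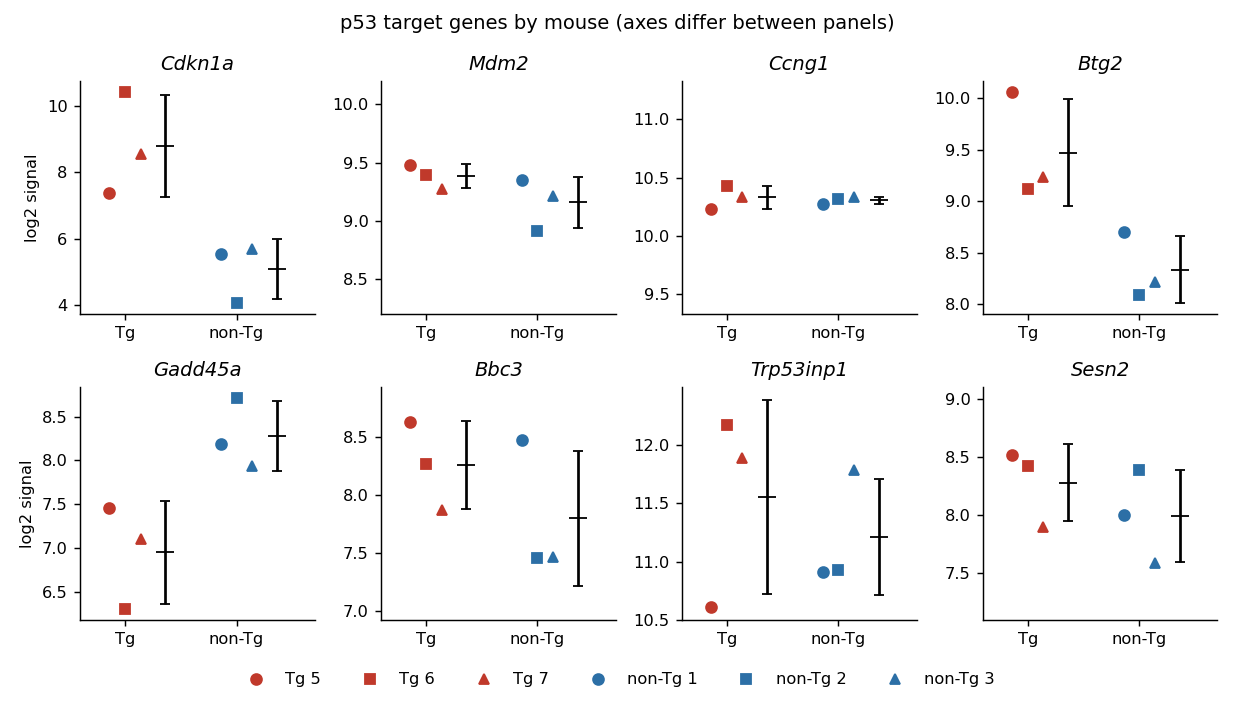
Log2 signal (vertical axes, which differ between panels) of the 8 measured p53 genes in 3 Tg livers (red, left) and 3 non-Tg livers (blue, right), 1 symbol per mouse, with the mean and SD of each group as a bar. Cdkn1a and Btg2 lie higher in all Tg than in all non-Tg livers and Gadd45a lower, while the other 5 genes overlap.

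Gadd45a, a growth arrest gene whose protein binds PCNA and p21 and activates stress kinases, lay the other way. Its log2 signal was 7.45 in Tg 5, 6.30 in Tg 6 and 7.10 in Tg 7, against 8.18 in non-Tg 1, 8.72 in non-Tg 2 and 7.94 in non-Tg 3. All Tg livers lay below all non-Tg livers. Tg livers averaged 6.95 ± 0.59 and non-Tg livers 8.28 ± 0.40 (SD over 3 mice each). The log2 difference was -1.33 ± 0.35 (SE), with a limma adjusted p of 0.735, short of the threshold. Its interval ran from -2.11 to -0.54 (95%, unadjusted). Within the bioC sets Gadd45a differed by -1.31 and -1.23. It has a single probe set, so there is no other reading of the same gene on these arrays.

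Btg2, an antiproliferative protein that recruits the CCR4-NOT deadenylase to messenger RNAs, was higher in Tg livers on both of its probe sets. On the probe set that stands for the gene it was at 10.07, 9.12 and 9.24 in Tg 5, Tg 6 and Tg 7, against 8.70, 8.09 and 8.22 in non-Tg 1, non-Tg 2 and non-Tg 3. The Tg values lay above the non-Tg values without overlap, and Tg 5, the Tg liver with the least Cdkn1a, had the most Btg2. Tg livers averaged 9.47 ± 0.52 and non-Tg livers 8.34 ± 0.33 (SD over 3 mice each), which makes a log2 difference of 1.14 ± 0.28 (SE), or 2.20-fold, with a limma adjusted p of 0.653. The interval was 0.52 to 1.75 (95%, unadjusted). The other probe set read 9.36, 8.12 and 8.25 in Tg livers, against 8.10, 7.26 and 7.26 in non-Tg livers, a difference of 1.04 ± 0.37 (SE). Btg2 also differed between the sets of arrays: the lower bioC set was above the higher one by 0.35 among Tg and by 0.55 among non-Tg livers, and non-Tg 1 was the highest non-Tg liver on both probe sets. Within the lower and the higher set the Tg minus non-Tg difference of Btg2 was 0.89 and 1.09.

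On the probe sets that stand for the genes, the groups did not overlap for Cdkn1a, Btg2 and Gadd45a, 2 of 8 higher and 1 of 8 lower. Among all tested genes, 6.04% were higher and 5.64% lower in Tg livers without overlap. The same 3 genes differed at least 2-fold, against 3.65% of all tested genes. Cdkn1a was known to be among them when the list was made, so of the 7 genes added to it 2 remain, and none of the 7 passed the limma threshold.

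Mdm2, the p53-induced inhibitor of p53, was higher in Tg livers on average, by an amount that varied among its probe sets. It was at 9.48, 9.39 and 9.27 in Tg 5, Tg 6 and Tg 7, against 9.35, 8.92 and 9.21 in non-Tg 1, non-Tg 2 and non-Tg 3, and the groups overlapped. The difference was 0.22 ± 0.17 (SE; limma adjusted p = 0.841; 95% interval -0.16 to 0.60, unadjusted). It was 0.10 without non-Tg 2, the lowest liver, and 0.09 and 0.21 within the lower and the higher bioC set. The lower set was above the higher one by 0.16 among Tg and by 0.29 among non-Tg livers. A further probe set, with nearly the same mean over the 6 arrays (9.21 beside 9.27), gave 0.60 ± 0.26 (SE), and a dim probe set below the filter gave 1.76 ± 1.28 (SE). All 3 lay on the higher side in Tg livers, each with overlap between the groups.

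Ccng1, cyclin G1, which is among the genes most regularly induced by p53 in mouse tissues, differed little on the probe set that stands for it. It read 10.23, 10.43 and 10.33 in Tg 5, Tg 6 and Tg 7, against 10.27, 10.31 and 10.33 in non-Tg 1, non-Tg 2 and non-Tg 3. The difference was 0.03 ± 0.12 (SE; limma adjusted p = 0.977), with an interval of -0.25 to 0.31 (95%, unadjusted). Within the lower and the higher bioC set it was 0.06 and 0.01. A further probe set gave 0.01 ± 0.15 (SE). The dimmest, at a mean of 9.16, gave 0.37 ± 0.17 (SE) with no overlap between the groups: it was at 9.32, 9.47 and 9.23 in Tg livers, against 9.04, 9.09 and 8.78 in non-Tg livers.

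Bbc3 encodes PUMA, which triggers cell death by binding the survival members of the BCL2 family. Its log2 signal was 8.63, 8.27 and 7.87 in Tg 5, Tg 6 and Tg 7, against 8.47, 7.46 and 7.47 in non-Tg 1, non-Tg 2 and non-Tg 3. The groups overlapped through non-Tg 1, which read like the Tg livers. The difference was 0.46 ± 0.32 (SE; limma adjusted p = 0.835), and it was 0.79 without non-Tg 1, 0.27 without Tg 5, 0.29 without non-Tg 2 and 0.29 without non-Tg 3. The lower bioC set was above the higher one by 0.58 among Tg and by 1.01 among non-Tg livers, and within the lower and the higher set the Tg minus non-Tg difference was -0.02 and 0.41.

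Trp53inp1, a p53-induced nuclear protein that promotes arrest, cell death and autophagy, read 10.61, 12.17 and 11.89 in Tg 5, Tg 6 and Tg 7, against 10.91, 10.93 and 11.79 in non-Tg 1, non-Tg 2 and non-Tg 3. Tg 5 was the lowest of all 6 livers, below every non-Tg value. The difference was 0.35 ± 0.38 (SE; limma adjusted p = 0.873), 0.82 without Tg 5, 0.04 without Tg 6, 0.18 without Tg 7, 0.20 without non-Tg 1, 0.21 without non-Tg 2 and 0.64 without non-Tg 3. Within the lower and the higher bioC set it was 0.48 and 0.53. Its other probe set gave 0.82 ± 0.45 (SE), also with overlap.

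Sesn2, sestrin 2, restrains the growth kinase mTORC1 and is induced by p53 and by amino acid shortage. It was at 8.52, 8.42 and 7.90 in Tg 5, Tg 6 and Tg 7, against 7.999, 8.39 and 7.59 in non-Tg 1, non-Tg 2 and non-Tg 3, a difference of 0.29 ± 0.27 (SE; limma adjusted p = 0.864). The difference was 0.09 without non-Tg 3, 0.17 without Tg 5, 0.49 without non-Tg 2 and 0.48 without Tg 7, and within the lower and the higher bioC set it was 0.47 and -0.09. The other Sesn2 probe set gave -0.19 ± 0.36 (SE), so the probe sets of this gene stood on opposite sides of 0, each within its error.

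**Figure D2:**
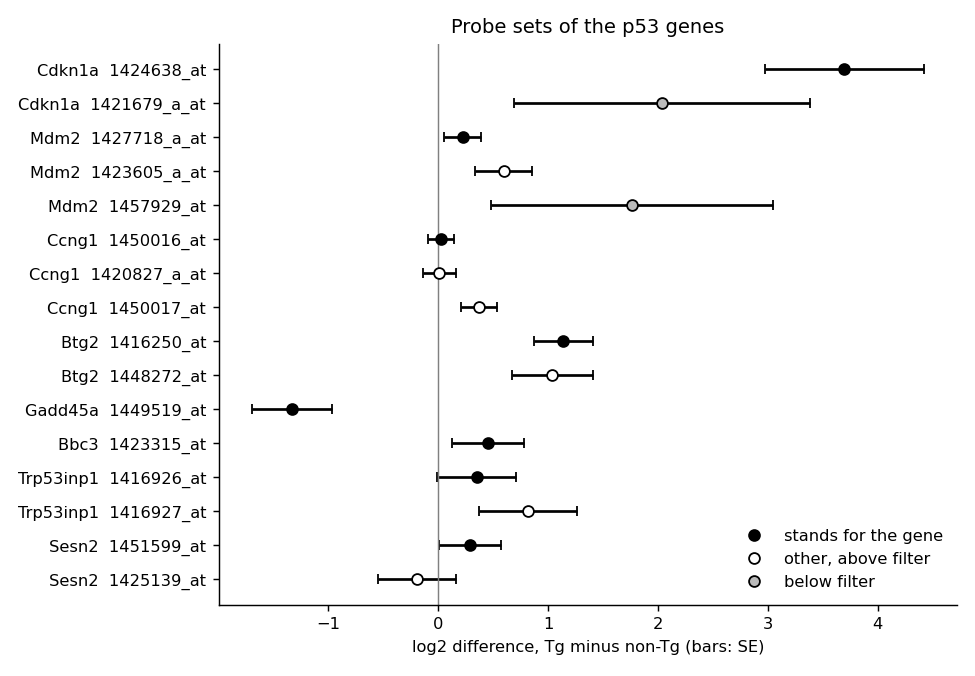
Log2 difference, Tg minus non-Tg (horizontal axis), of all 16 probe sets of the 8 genes, with SE bars from limma over all probe sets with a single symbol. Filled points stand for the gene, open points are its other probe sets above the filter and grey points lie below it. Gadd45a at -1.33 and a Sesn2 probe set at -0.19 are left of 0 and the other 14 are right of it.

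The 8 genes did not share a single pattern over the mice. Tg 5 had the highest signal for 4 of them (Mdm2, Btg2, Bbc3 and Sesn2), Tg 6 for 3 (Cdkn1a, Ccng1 and Trp53inp1), and non-Tg 2 for Gadd45a. Over the 6 arrays the Pearson r with Cdkn1a was 0.66 for Mdm2, 0.63 for Trp53inp1, 0.62 for Btg2, 0.56 for Ccng1, 0.44 for Bbc3 and 0.22 for Sesn2. These values include the difference between the groups. After each group's mean was subtracted, r with Cdkn1a was 0.80 for Trp53inp1 and for Ccng1, 0.30 for Mdm2, 0.01 for Bbc3, -0.36 for Sesn2 and -0.47 for Btg2.

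**Figure D3:**
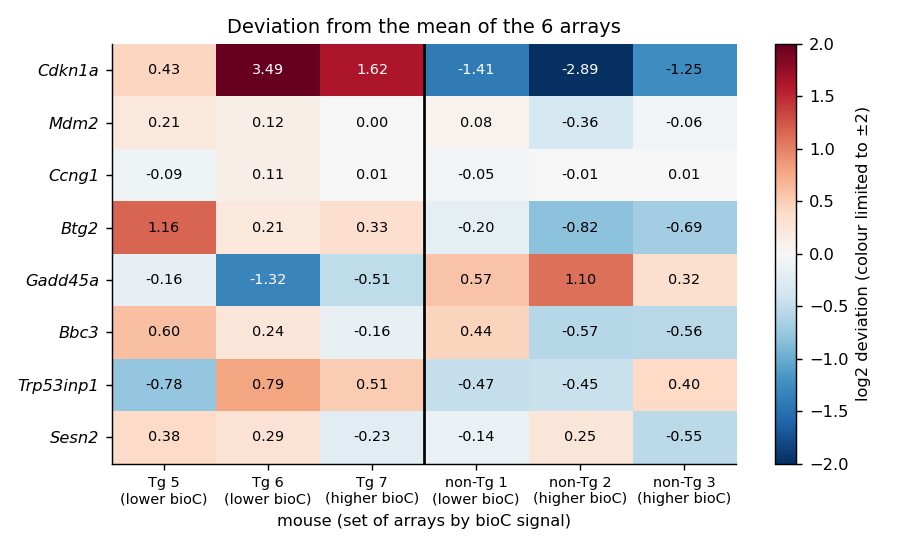
Deviation of each gene's log2 signal from its mean over the 6 arrays (colour and printed value, colour limited to ±2), by mouse, with Tg livers left of the line, non-Tg livers right of it, and the bioC set of each array in brackets. Cdkn1a runs from -2.89 in non-Tg 2 to 3.49 in Tg 6, Btg2 peaks in Tg 5 at 1.16, and Bbc3 is above its mean in all 3 arrays of the lower bioC set.

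Gadd45a ordered the mice in reverse of Cdkn1a on the probe set that stands for Cdkn1a. Of the 12705 genes tested, Gadd45a had the lowest Pearson r with Cdkn1a over the 6 arrays, -0.996 (Spearman rho = -1), and r was -0.988 after each group's mean was subtracted. With the dimmer Cdkn1a probe set it was -0.67, and the order of the mice was not reversed. There non-Tg 2 was the highest non-Tg liver, at 4.33, and Tg 5 the lowest of all 6, at 2.27. On the brighter probe set the non-Tg order rests on signals near or under the filter at 5.63 (5.54, 4.06 and 5.70). In all, 26 of the 12704 other genes ordered the 6 mice exactly opposite to Cdkn1a and 19 in exactly the same order. The next lowest were Hmgn1, a nucleosome-binding protein, at -0.989, Cyb5a, cytochrome b5, at -0.989, and Rarres2, which encodes chemerin, at -0.987. The highest were Ncoa4, the receptor that carries ferritin to the lysosome, at 0.994, Aopep, an aminopeptidase, at 0.989, and Acacb, the mitochondrial acetyl-CoA carboxylase, at 0.983. After them came Ascc3, a DNA helicase, at 0.982, Chd4, a chromatin remodeller, at 0.981, and Asl, a urea cycle enzyme, at 0.977. None of these highest 6 is a p53 gene of the lists used here. With 6 points that share the group difference, and the extremes taken from 12704 genes, these values describe the arrays only.

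**Figure D4:**
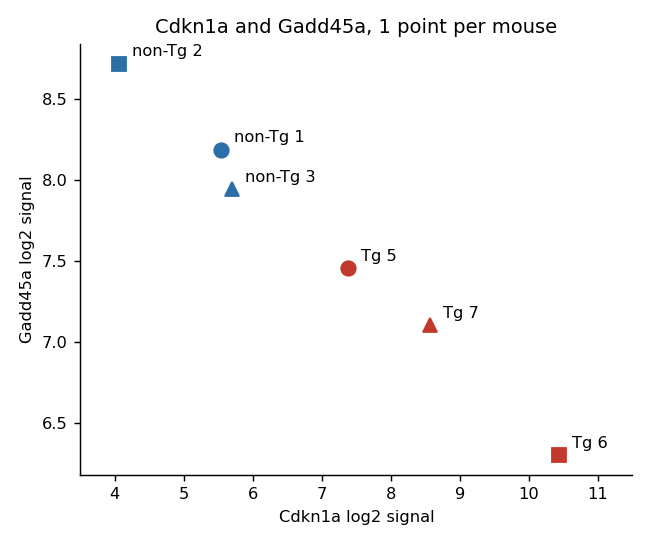
Log2 signal of Gadd45a (vertical axis) against that of Cdkn1a (horizontal axis), 1 point per mouse, Tg red and non-Tg blue. The points fall from non-Tg 2 at the upper left (4.06 for Cdkn1a, 8.72 for Gadd45a) to Tg 6 at the lower right (10.44 and 6.30). The order of the mice is exactly reversed between the probe sets that stand for the genes.

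Wider lists of the pathway showed no gene past the threshold. Of 37 other p53 targets 29 were measured, 17 higher and 12 lower in Tg livers, with a median log2 difference of 0.07, or 0.17 without Tg 7, 0.14 without non-Tg 3 and -0.0017 with median centring. Over all 12705 genes the median was 0.01, or -0.06 with median centring, and 52.1% were higher. The groups did not overlap for 4 of the 29, near the share among all tested genes, 11.7% in either direction. Sco2, which helps to assemble cytochrome c oxidase, averaged 11.63 ± 0.31 in Tg livers and 12.26 ± 0.10 in non-Tg livers (SD over 3 mice each) and differed by -0.64 ± 0.15 (SE), with a limma adjusted p of 0.653. The receptor kinase Epha2 differed by 0.64, the DNA repair nuclease Ercc5 by 0.14 and the membrane protein Cd82 by 0.13, with limma adjusted p from 0.787 to 0.880. Of 24 genes that act on p53, 20 were measured, 9 higher and 11 lower, with a median of -0.03 and a range of -0.36 to 0.26. Only Ppp1r13b, a p53-binding protein of the ASPP family, did not overlap between the groups in this list, at -0.33 (limma adjusted p = 0.807).

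The other measured inhibitors of cyclin-dependent kinases differed by -0.23 to 0.02. The closest relatives of p21 are p27, encoded by Cdkn1b, and p57, encoded by Cdkn1c. Cdkn1b read 9.08, 9.15 and 8.97 in Tg 5, Tg 6 and Tg 7, against 9.25, 8.98 and 8.90 in non-Tg 1, non-Tg 2 and non-Tg 3, a difference of 0.02 ± 0.17 (SE). Cdkn1c differed by -0.04 ± 0.32 (SE). Of the INK4 inhibitors, which bind CDK4 and CDK6, Cdkn2c differed by 0.01 ± 0.21 and Cdkn2d by -0.23 ± 0.29 (SE), and the other 2 genes of the list were not among the genes tested. Limma adjusted p for these 4 genes ran from 0.890 to 0.995, and all 4 overlapped between the groups.

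Paralogues of the p53 genes showed no common direction either, with 6 of 12 measured genes higher and 6 lower, a median of 0.02 and overlap in each. Gadd45g differed by 1.90 ± 1.00 (SE; limma adjusted p = 0.820), the opposite side from Gadd45a, but its values were widely spread, at 10.98, 12.01 and 8.73 in Tg 5, Tg 6 and Tg 7, against 8.35, 6.81 and 10.87 in non-Tg 1, non-Tg 2 and non-Tg 3. Gadd45b differed by -0.38 ± 0.84 (SE), with Tg 5 at 4.25 and the other 5 livers from 6.74 to 8.07. Trp53inp2, an autophagy protein related to Trp53inp1, differed by 0.46 ± 0.17 (SE; limma adjusted p = 0.787). The remaining 9 genes lay between -0.29 and 0.26: Mdm4 (-0.29), Sesn3 (-0.14), Tob1 (-0.14), Btg1 (-0.11), Tob2 (-0.05), Ccng2 (0.08), Sesn1 (0.13), Bak1 (0.25) and Trp73 (0.26).

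None of the genes whose products p21 acts on passed the threshold in either direction. Of 18 measured cyclins, cyclin-dependent kinases and their partners, 10 were higher and 8 lower in Tg livers, with a median of 0.02. The mitotic kinase Cdk1 averaged 8.17 ± 0.43 in Tg livers and 7.32 ± 0.53 in non-Tg livers (SD over 3 mice each) and differed by 0.85 ± 0.33 (SE). Cyclin A2, Ccna2, differed by 1.09 ± 0.48 and cyclin D3, Ccnd3, by 0.31 ± 0.16 (SE). These 3 genes were higher in every Tg than in every non-Tg liver, none of the 18 was lower in that way, beside 6.04% higher and 5.64% lower without overlap among all tested genes, and limma adjusted p for the 3 ran from 0.803 to 0.820. For Ccnd3 the groups nearly touched, with the lowest Tg liver at 9.89 and the highest non-Tg liver at 9.88. Pcna, the replication clamp that p21 binds, differed by -0.11 ± 0.12 (SE), and Cdk2 by -0.01 ± 0.17 (SE); both were picked for mention because p21 binds their products, with their values known.

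Among 15 other genes of the BCL2 family and the apoptosome, 7 were higher and 8 lower, with a median of -0.08. Mcl1, a survival protein that PUMA binds, averaged 11.60 ± 0.09 in Tg livers and 11.98 ± 0.09 in non-Tg livers (SD over 3 mice each). All 3 Tg values lay below the non-Tg values, a difference of -0.38 ± 0.11 (SE; limma adjusted p = 0.735).

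**Figure D5:**
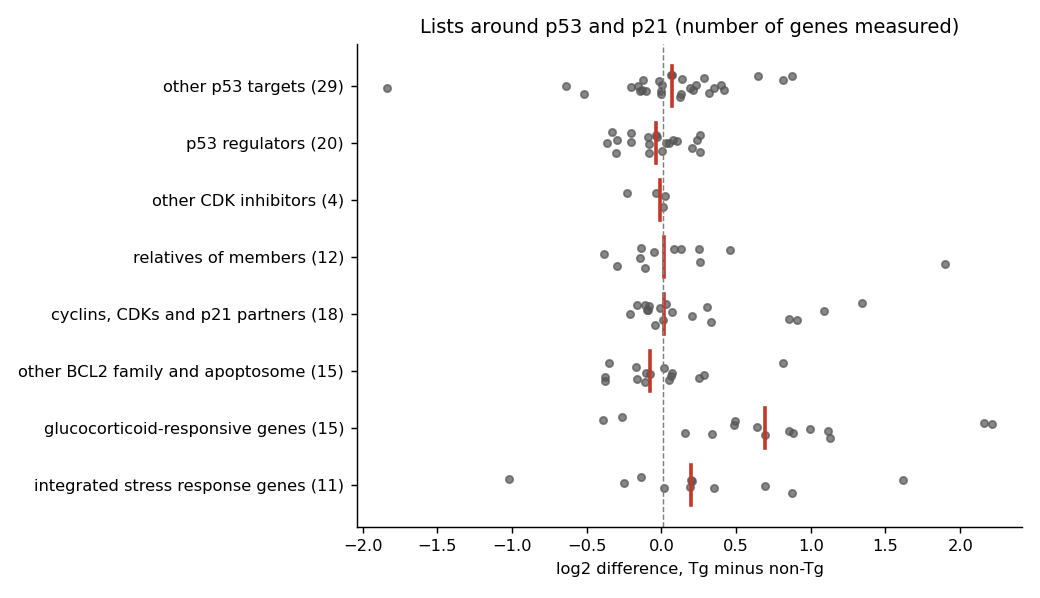
Log2 difference, Tg minus non-Tg (horizontal axis), of the measured genes in 8 lists around p53, p21 and 2 other stress responses, 1 point per gene with vertical scatter for legibility. Red bars are list medians and the dashed line is the median of all 12705 genes, 0.01. The medians of 6 lists lie between -0.08 and 0.07, that of the integrated stress response is 0.20 and that of glucocorticoid-responsive genes 0.70.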

How the data were processed

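Liver RNA of 6 mice, 3 Tg and 3 non-Tg, was measured on 1 array each. The authors deposited log2 signals for 45101 probe sets. GCOS, the Affymetrix array software, is named in the submitters' processing notes without version, algorithm or scaling target. The 2% trimmed mean of the antilogged values was 500.004 on each array, so the arrays had been scaled to a common level. Detection calls were not used, and precision is limited by the number of arrays. Each array is 1 mouse, the unit of replication.

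Symbols came from GEO's platform annotation (34945 probe sets with a single symbol, 932 with several, 9160 with none, after 64 controls were set aside); by Entrez number 34741 matched RefSeq, and 0 symbols changed. Probe sets with a mean above the 40th percentile were kept, and the one with the highest mean stood for each of 12705 genes. Groups were compared with limma 3.58.1 in R 4.3.3 (lmFit, eBayes with intensity trend, 2-sided, Benjamini-Hochberg adjustment over all genes, threshold 0.05). SEs and intervals are those of the moderated fit; single probe sets were read from the same fit without the filter. The procedure was tested on simulated data. Promoter windows were read from the RefSeq table with Python 3.11.15, and figures drawn with matplotlib 3.10.9.

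The genes and lists were chosen with earlier results of these data known. Named are the 8 genes, each list's members past the threshold, up to 5 of a list's members without overlap between groups by smallest p, all measured CDK inhibitors and paralogues, and the genes most and least correlated with Cdkn1a. Alternatives were other constants before the log, filters, normalizations, moderations, array weights, averaging of probe sets, the bioC set as a block or split, and leaving out each mouse.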

Additional observations from a re-analysis of the deposited data

How the results depend on the processing

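No paired analysis was possible because the replicate numbers of the Tg and the non-Tg mice are not shared. The count of genes past the threshold, 2, became 4 with 16 and 6 with 64 added before the log, 5 with median centring, 4 with robust moderation and 4 with the bioC set as a block, and it was 2 to 3 when a mouse was left out; Btg2, Gadd45a, Mdm2, Ccng1, Bbc3, Trp53inp1 and Sesn2 passed in none of the 17 alternatives with a test. The Cdkn1a difference of 3.70 became 2.39 with 64 added and ran from 2.88 to 4.40 over the left-out mice; the filter at the 60th percentile left it no value. Btg2 stayed between 0.84 and 1.32 and Gadd45a between -1.58 and -0.98 over 19 alternatives. The sign turned for Ccng1 with median centring (-0.048) and without Tg 6 (-0.024, with 0.077 without Tg 5 the other end of the left-out range), for Bbc3 within the lower bioC set (-0.023) and for Sesn2 within the higher one (-0.086). Over 19 alternatives the list medians ran from -0.0017 to 0.17 for other p53 targets, -0.11 to 0.07 for p53 regulators, -0.14 to 0.12 for CDK inhibitors, -0.08 to 0.16 for paralogues, -0.05 to 0.12 for cyclins and their partners and -0.23 to 0.03 for the BCL2 family, so each range included 0. Median centring also moved the median of all tested genes, from 0.01 to -0.06. It was the only alternative that put the median of other p53 targets below 0. Causes were not tested.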

Other observations

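Glucocorticoid-responsive genes, the list with the highest median of the 8, were mostly higher in Tg livers; the list was drawn up with the values of Mt1 and Mt2 known. Of 15 measured genes 13 were higher, with a median log2 difference of 0.70, beside 0.01 over all 12705 genes, and none passed the threshold over all genes. The median was 0.42 without Tg 6 and 1.07 without Tg 5, and within the lower and the higher bioC set it was 0.82 and 0.46. Tat, the tyrosine aminotransferase gene of hepatocytes, was at 14.51, 15.33 and 15.10 in Tg 5, Tg 6 and Tg 7, against 13.74, 13.50 and 14.36 in non-Tg 1, non-Tg 2 and non-Tg 3. Its groups did not overlap, and the difference was 1.12 ± 0.24 (SE; limma adjusted p = 0.468). Mt1 and Mt2, the metallothioneins, differed by 2.16 ± 0.52 and 2.21 ± 0.53 (SE). For Mt1 the groups nearly touched, with the lowest Tg liver at 14.23 and the highest non-Tg liver at 14.21. The clock gene Per1 differed by 0.50, while the transcription factor Klf9 lay lower in every Tg liver, at -0.39. Limma adjusted p for Mt1, Mt2, Per1 and Klf9 ran from 0.653 to 0.787. Of the 15 genes, 4 were higher and 1 lower without overlap, and the rest overlapped. Among all tested genes, 6.04% were higher and 5.64% lower without overlap.

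Among 11 measured genes of the integrated stress response, which shares Sesn2 with the p53 pathway, 8 were higher, with a median of 0.20 and none past the threshold. The median was 0.02 without Tg 5, 0.33 without non-Tg 1, 0.09 without non-Tg 3 and 0.06 with the bioC set as a block, and it was -0.01 within the lower and 0.37 within the higher bioC set. Asns, asparagine synthetase, was at 9.98, 8.01 and 7.41 in Tg 5, Tg 6 and Tg 7, against 6.86, 6.84 and 6.85 in non-Tg 1, non-Tg 2 and non-Tg 3, a difference of 1.61 ± 0.55 (SE; limma adjusted p = 0.779). Tg 5 stood highest, as it did for Mdm2, Btg2, Bbc3 and Sesn2 on the probe sets that stand for these genes. On the other Sesn2 probe set non-Tg 1 was highest, at 8.14 beside 8.01 in Tg 5, and on the dim Mdm2 probe set at 6.14 beside 6.02. In the stress response list Atf4 was also highest in Tg 5, while the remaining measured genes were highest in other livers. Tg 5 also had the highest median log2 signal of the arrays, 6.74. Vldlr, the VLDL receptor, lay lower in all Tg livers, at -1.02 ± 0.35 (SE; limma adjusted p = 0.779).

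Of the marker sums for 9 cell types, 7 overlapped between the groups and those for stellate and erythroid cells did not. The summed signal of 8 stellate cell markers was 10792 to 12395 in Tg and 12566 to 16048 in non-Tg livers, and that of 5 erythroid markers 4529 to 6468 in Tg and 3361 to 3923 in non-Tg livers. The stellate markers did not move as one: 3 of the 8 did not overlap, Lrat and Reln lower in Tg livers and Acta2 higher, at 9.48, 9.09 and 8.72 in Tg 5, Tg 6 and Tg 7, against 8.63, 8.61 and 7.74 in non-Tg 1, non-Tg 2 and non-Tg 3. Of the 5 erythroid markers, 3 of them above the filter, Hbb-b2 and Alas2 did not overlap, both higher in Tg livers, and the rest overlapped. Alas2 was by far the brightest of the 5, at 11.99 to 12.47 in Tg and 11.61 to 11.81 in non-Tg livers, so it made up most of the sum. Among all tested genes, 11.7% did not overlap in either direction. The part of stellate and erythroid cells in the differences of the p53 genes was not tested.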
